A study of Mus musculus with 9 samples.

Results

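In all, 10 genes expressed by macrophages were followed across the 9 arrays: the endocytic and scavenger receptors Stab1, Mrc1, Cd163 and Lyve1, the membrane proteins Ms4a7 and Ms4a14, the folate-binding receptor Folr2, the secreted proteins F13a1 and Pf4, and the enzyme Cbr2. They are 10 of the 22180 genes that the array annotation names with a probe set of their own, and each of them has 1 such probe set, so 0 had a choice between probe sets. The genes were chosen with their values in all 3 groups known, and their levels and differences are therefore given as a description, with no test. RNA of frozen brain lesions and tumors of mice was hybridized to Affymetrix MoGene-2_0-st arrays, 3 for each of 3 groups.

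The P3 tumors are glioblastomas (GBM) that grew after a lentivirus was injected into the striatum of adult mice. The virus carries a human PDGF-A cDNA that doxycycline (DOX) in the diet switches on, together with a constitutively expressed Cre recombinase. Cre removes a floxed stop cassette in front of human PDGFRα, which a CAG promoter drives from the Col1a1 locus, and deletes the floxed p53 alleles, so receptor and p53 loss are found only in cells the virus reached. The labels write this genotype as hPDGF-A;hPDGFRα;p53lox and give 25 mg/kg DOX for the 3 low-DOX tumors and 600 mg/kg DOX for the 3 high-DOX tumors. For the high-DOX diet the paper states a somewhat higher dose than the labels. The 3 OPC lesions, growths of oligodendrocyte precursor cells, carry hPDGFRα;p53 as their labelled genotype and were also on 600 mg/kg DOX. The paper instead describes OPC overgrowth after injection of the hPDGF-A-Cre virus into mice with floxed p53 and without the receptor transgene, and these arrays cannot settle which is right. In the paper's account the overgrowing OPCs kept wild-type p53, so p53 loss cannot be taken as shared by all 3 groups. The design speaks of biological replicates without saying that each array came from another mouse, so p-values measure the spread between these samples. The labelled tissue was checked by Pdgfra and Olig2, genes of the OPC lineage. Pdgfra had mean log2 values of 12.02 in OPC lesions, 11.17 in low-DOX and 12.27 in high-DOX tumors, and Olig2 had 11.58, 10.97 and 11.43, in each array above at least 96.6% of all genes. Pdgfa, which encodes the mouse ligand, had means of 7.05, 7.32 and 7.02 in the same order, so it was not higher at the higher dose. Whether its mouse probe set reads the human cDNA of the virus was not tested. Nor was it tested whether the Pdgfra probe set reads the human PDGFRα transcript, so Pdgfra may not stand for the lineage alone.

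Macrophages at the borders of the brain, in the meninges, along blood vessels and in the choroid plexus, differ from microglia, the macrophages of the parenchyma. In mice, border macrophages are known for high Mrc1, Cd163, Lyve1, Pf4, F13a1, Cbr2, Stab1, Folr2 and Ms4a7, which resting microglia largely lack. Macrophages that derive from blood monocytes can take up Mrc1, Stab1 and Ms4a7 as well, so these genes alone do not name a cell. The products take up modified lipoproteins, glycoproteins and haemoglobin complexes, bind hyaluronan or folate, or, as the Ms4a proteins do, span the membrane several times.

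The data bore out this label only in part. Stab1, Mrc1, Ms4a7 and Ms4a14 were far higher on every low-DOX array than on any other array. Cd163, Lyve1, Cbr2 and Pf4, which mark border macrophages in mice, stayed close to the level of genes that brain tissue hardly expresses. The exception was Lyve1 on high-DOX replicates 1 and 2, at 5.17 and 5.62. F13a1 stood high on 1 low-DOX array and Folr2 on the low-DOX arrays and 1 OPC lesion array. The set is therefore called here by its genes, and no cell type is read from it.

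A level to read low values against came from 1394 olfactory and vomeronasal receptor genes. The 95th percentile of their values lay between 4.23 and 4.49 on the 9 arrays and is called the background reference below. All values are log2 array values, in which a difference of 1 is a 2-fold difference in signal. Levels of different genes were not compared, since probe sets differ in their response.

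The promoter stretches of the 4 genes that were high in low-DOX tumors are shown, with that of Cd163, which was not, as a contrast. Each is the 250 bases before an annotated start in the RefSeq annotation of GRCm38.p6, read along the gene's own strand. Capitals mark the letters GAGGAA or their reverse complement TTCCTC, the core bound by PU.1, the factor that macrophages need to form. The stretches are Stab1 at chr14:31168642-31168891, minus strand, Mrc1 at chr2:14229164-14229413, plus strand, Ms4a7 at chr19:11336147-11336396, minus strand, Ms4a14 at chr19:11314455-11314704, minus strand and Cd163 at chr6:124304401-124304650, plus strand. For Ms4a7, which has 2 annotated starts, the first listed is printed.
Stab1: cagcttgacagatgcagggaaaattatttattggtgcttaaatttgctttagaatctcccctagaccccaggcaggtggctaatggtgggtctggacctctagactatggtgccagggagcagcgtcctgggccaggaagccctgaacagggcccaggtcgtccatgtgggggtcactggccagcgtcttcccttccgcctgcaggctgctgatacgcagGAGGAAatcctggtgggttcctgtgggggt
Mrc1: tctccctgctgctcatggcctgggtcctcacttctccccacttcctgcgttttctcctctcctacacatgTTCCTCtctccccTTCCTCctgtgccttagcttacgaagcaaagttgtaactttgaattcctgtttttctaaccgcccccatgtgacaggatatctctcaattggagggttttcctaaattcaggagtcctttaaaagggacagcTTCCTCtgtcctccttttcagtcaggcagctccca
Ms4a7: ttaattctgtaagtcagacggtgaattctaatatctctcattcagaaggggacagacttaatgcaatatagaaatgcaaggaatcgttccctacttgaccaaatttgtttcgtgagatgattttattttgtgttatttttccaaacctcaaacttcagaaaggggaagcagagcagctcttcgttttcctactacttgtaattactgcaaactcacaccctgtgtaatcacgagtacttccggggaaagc
Ms4a14: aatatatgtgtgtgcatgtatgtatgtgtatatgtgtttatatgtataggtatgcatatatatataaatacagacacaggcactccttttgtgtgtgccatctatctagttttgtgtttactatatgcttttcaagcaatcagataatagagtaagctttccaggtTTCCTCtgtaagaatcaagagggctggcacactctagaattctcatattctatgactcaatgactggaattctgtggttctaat
Cd163: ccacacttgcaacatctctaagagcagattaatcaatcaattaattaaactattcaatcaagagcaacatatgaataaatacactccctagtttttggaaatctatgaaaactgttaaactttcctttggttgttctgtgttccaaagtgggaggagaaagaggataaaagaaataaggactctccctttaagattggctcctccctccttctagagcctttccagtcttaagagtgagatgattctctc

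Stab1, Mrc1 and Ms4a14 held the PU.1 letters in these stretches, Mrc1 in 3 places, and Ms4a7 and Cd163 did not. In Stab1 the match began 30 bases before the start and in Ms4a14 84 bases before it. Over the 12 annotated starts of 9 of the genes, 6 stretches held GAGGAA on either strand, those of Cbr2, F13a1, Mrc1, Ms4a14, Pf4 and Stab1, and 23.3% of 32851 mouse promoter stretches of the same length did. Genes with and without the letters were found both among those that were high in low-DOX tumors and among those that were not. Letters of 4 other factors were searched in the same way on both strands. TGCTGA, the half-site of MAF factors, lay in 3 of the 12 stretches (Stab1 and both starts of Folr2), against 16.1% of all. TGANTCA, the AP-1 site, lay in 3 (Ms4a14 and the other starts of Ms4a7 and Folr2), against 6.75%. TTGCNNAA, a C/EBP form, lay in 1 (Pf4), against 9.56%. CACGTG, the form bound by TFEB and MITF, lay in 0, against 6.02%. The MAF and AP-1 letters can overlap where they meet. Lyve1 was not searched. These matches are letters in a window and were not tested for binding.

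Stab1, or stabilin-1, is a large receptor that carries acetylated lipoproteins and matrix fragments into the endosome. Its log2 values were 8.92, 8.15 and 8.83 in the low-DOX tumors, 5.83, 5.72 and 6.31 in the high-DOX tumors and 5.51, 6.31 and 5.89 in the OPC lesions. The low-DOX arrays stood apart from the other 6, which overlapped each other. High-DOX minus low-DOX was -2.68 (SE of the limma fit 0.28, n = 3 a group), that is a 6.42-fold lower signal, and low-DOX minus OPC lesion was 2.73 (SE 0.28). The group means of OPC lesions and high-DOX tumors were 5.90 ± 0.40 and 5.95 ± 0.31 (SD) and differed by less than either SD.

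Mrc1, the mannose receptor CD206, binds glycoproteins that end in mannose. Its values were 8.22, 7.74 and 9.04 in the low-DOX tumors, 5.16, 5.26 and 4.93 in the high-DOX tumors and 4.94, 6.09 and 4.70 in the OPC lesions. All low-DOX values were above all others, and replicate 2 was the highest of the OPC lesions. The high-DOX tumors were lower by 9.31-fold (log2 difference -3.22, SE 0.42), and the low-DOX tumors exceeded the OPC lesions by 3.09 (SE 0.42).

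Cd163, the receptor that clears complexes of haemoglobin and haptoglobin, did not follow them. Its values were 4.65, 4.89 and 4.85 in the low-DOX tumors, 5.09, 4.83 and 4.87 in the high-DOX tumors and 4.87, 4.74 and 5.00 in the OPC lesions. The 9 arrays lay within 0.44 of each other, a little above the background reference, and the groups overlapped throughout. High-DOX minus low-DOX was 0.13 (SE 0.13).

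Lyve1 binds hyaluronan and is shared by lymphatic endothelium and border macrophages. It measured 4.74, 4.40 and 4.61 in the low-DOX tumors, 5.17, 5.62 and 4.48 in the high-DOX tumors and 4.82, 4.61 and 4.70 in the OPC lesions. The highest values were in 2 of the high-DOX tumors, and the third lay among the low-DOX values. High-DOX minus low-DOX was 0.51 (SE 0.26), 0.81 without high-DOX replicate 3 and 0.24 without high-DOX replicate 2. The latter array also held the only strong choroid plexus signal: the mean of 7 genes of that tissue, such as the thyroxine carrier Ttr, was 7.68 there and at most 4.73 elsewhere. Its part in the Lyve1 value was not tested.

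Ms4a7 and Ms4a14 belong to the membrane-spanning 4A family, whose founder Ms4a1 encodes the B cell antigen CD20. Ms4a7 measured 9.34, 8.54 and 8.84 in the low-DOX tumors, 3.82, 3.61 and 5.20 in the high-DOX tumors and 3.58, 5.41 and 4.66 in the OPC lesions. On 2 of the 3 high-DOX arrays and 1 of the OPC lesion arrays it was not shown to be above background. High-DOX minus low-DOX was -4.70 as measured (SE 0.55), the widest difference of the 10 genes, and low-DOX minus OPC lesion was 4.36 (SE 0.55). With the arrays below the background reference set at it, the low-DOX signal was at least 19.3-fold above the high-DOX signal and at least 17.0-fold above that of the OPC lesions. The lowest low-DOX array lay 3.34 above the highest high-DOX array and 3.13 above the highest OPC lesion array.

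Ms4a14 measured 5.47, 5.23 and 6.75 in the low-DOX tumors, 2.86, 2.97 and 2.94 in the high-DOX tumors and 2.88, 3.19 and 2.97 in the OPC lesions. It was above the background reference only on the 3 low-DOX arrays, so against the other groups its difference has only a lower bound: at least 2.75-fold above the high-DOX tumors and at least 2.86-fold above the OPC lesions, each set at the reference of its own arrays. The measured differences were -2.89 for high-DOX minus low-DOX and 2.80 for low-DOX minus OPC lesion (SE 0.35 for both). Low-DOX replicate 3 was the highest, and without it the first became -2.42.

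**Figure D1:**
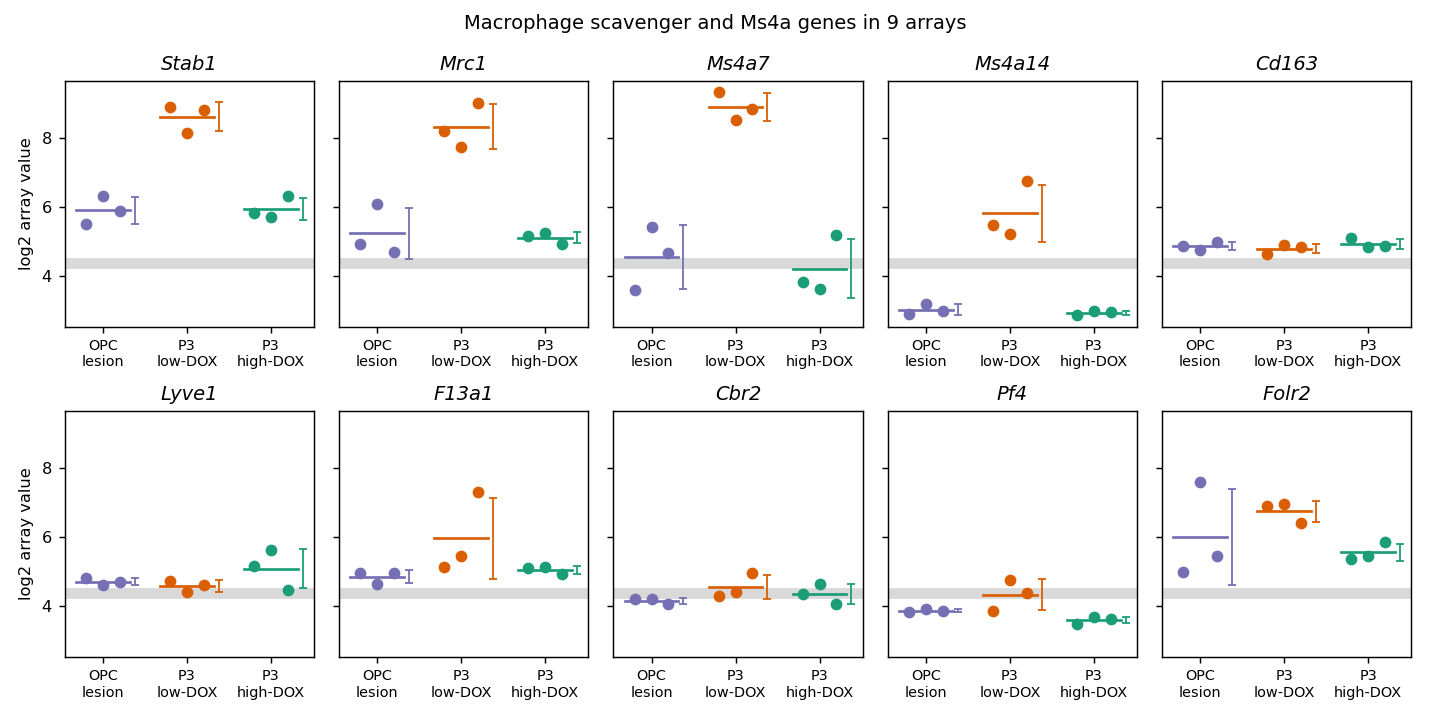
Log2 array values of the 10 genes in the 3 arrays of each group (points), with the group mean (line) and its SD (bar), and the range of the background reference over the 9 arrays (grey band). The low-DOX points of Stab1, Mrc1, Ms4a7 and Ms4a14 sit above all other points, whereas the Cd163, Cbr2 and Pf4 points lie near the band in all groups. Lyve1 points also lie near it, except those of high-DOX replicates 1 and 2 (5.17 and 5.62).

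Among the secreted proteins, F13a1, the A subunit of coagulation factor XIII, which crosslinks fibrin, measured 5.13, 5.46 and 7.32 in the low-DOX tumors, 5.11, 5.13 and 4.92 in the high-DOX tumors and 4.95, 4.64 and 4.97 in the OPC lesions. Only low-DOX replicate 3 stood apart. High-DOX minus low-DOX was -0.91 (SE 0.50) and -0.24 without that array, and low-DOX minus OPC lesion was 1.11 (SE 0.50) and 0.44 without it. The same array had the highest mean of 12 genes of meningeal fibroblasts, 8.38, where the other 8 arrays lay between 5.98 and 7.14, with the fibrillar collagen genes Col3a1 at 11.58 and Col1a2 at 11.78. Their part in the F13a1 value was not tested. Pf4, a chemokine of platelet granules that border macrophages also make, measured 3.86, 4.75 and 4.39 in the low-DOX tumors, 3.49, 3.67 and 3.62 in the high-DOX tumors and 3.82, 3.92 and 3.87 in the OPC lesions. It passed the background reference on 1 array only, low-DOX replicate 2. Its groups separated by 0.19 between high-DOX and low-DOX tumors, at a level where a difference cannot be read as expression. Platelet genes gave little to set beside it: 7 of 10 were measured, with a median difference of -0.13 for high-DOX minus low-DOX and means between 4.11 and 4.45 on the 9 arrays.

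Cbr2, a carbonyl reductase, measured 4.30, 4.42 and 4.95 in the low-DOX tumors, 4.36, 4.63 and 4.07 in the high-DOX tumors and 4.20, 4.22 and 4.05 in the OPC lesions. It was above the reference on 1 array in each P3 group and on none of the OPC lesion arrays, and high-DOX minus low-DOX was -0.20 (SE 0.21). Folr2, the folate receptor beta, measured 6.90, 6.96 and 6.41 in the low-DOX tumors, 5.38, 5.46 and 5.85 in the high-DOX tumors and 4.98, 7.61 and 5.47 in the OPC lesions. The low-DOX arrays lay above the high-DOX arrays with a difference of -1.19 for high-DOX minus low-DOX (SE 0.61), but OPC lesion replicate 2 was the highest of all 9. Low-DOX minus OPC lesion was 0.73 (SE 0.61) and became 1.53 without that replicate, 0.21 without OPC lesion replicate 1 and 0.46 without OPC lesion replicate 3.

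Counted over the list, all 3 high-DOX values lay below all 3 low-DOX values for 6 of the 10 genes (Stab1, Mrc1, Ms4a7, Ms4a14, Pf4 and Folr2), and this held for 7.76% of all genes. All 3 low-DOX values lay above all 3 OPC lesion values for 6 (Stab1, Mrc1, Ms4a7, Ms4a14, F13a1 and Cbr2), and for 6.34% of all genes. Between high-DOX tumors and OPC lesions, 1 gene (Pf4) was lower on all high-DOX arrays, against 3.02% of all genes, and 0 were higher, against 3.34%. Since the genes were chosen from these values, nothing is read from the counts. Over the 10 genes the median log2 difference was -1.05 for high-DOX minus low-DOX, 0.92 for low-DOX minus OPC lesion and -0.02 for high-DOX minus OPC lesion, where the medians of all genes were -2e-04, -0.0034 and -0.0073. The P3 doses and the OPC lesions were compared with limma over all 22180 genes, and 0% passed an adjusted p of 0.05 in any of the 3 comparisons (Benjamini-Hochberg). At an unadjusted p under 0.05 there were 2248, 2178 and 360 genes for high-DOX minus low-DOX, low-DOX minus OPC lesion and high-DOX minus OPC lesion. The first 2 comparisons share the low-DOX arrays and the last 2 the OPC lesion arrays.

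Within the groups the genes did not vary as 1 block. Deviations from the group means over the 9 arrays gave 45 pairs of genes with a median Pearson r of 0.08 and a range from -0.63 to 0.90. Several of the genes, such as Cd163, Cbr2 and Pf4, lay near the background reference, where there is little signal to vary. A low r in their pairs therefore does not show that they vary apart. Among Stab1, Mrc1, Ms4a7 and Ms4a14 the 6 pairs ran from 0.13 (Ms4a7 with Ms4a14) to 0.89 (Stab1 with Ms4a7), with a median of 0.51. Ms4a14 and F13a1 had an r of 0.90, which rests mainly on low-DOX replicate 3, high for both. The points of these correlations share arrays and their cell makeup, and each rests on 9 values, so they are descriptions.

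Pan-macrophage genes also had lower values in high-DOX tumors, and bulk RNA cannot tell fewer cells of a type from less RNA per cell. The 15 pan-macrophage genes, such as Adgre1, an adhesion receptor by which mouse macrophages are often stained, and the Fc receptor chain Fcer1g, all had values below 0 for high-DOX minus low-DOX, with a median of -1.60, 11 of them with no overlap of the groups and 0 past the test. Such a separation in this direction held for 7.76% of all genes. Adgre1 measured 9.63, 7.91 and 8.52 in the low-DOX tumors and 6.32, 6.31 and 6.13 in the high-DOX tumors (log2 difference -2.44, SE 0.64, limma adjusted p = 0.38). The mean of the list ran from 7.70 to 9.15 on the low-DOX arrays and from 6.54 to 7.09 on the high-DOX arrays. On the OPC lesion arrays it was 6.60, 8.54 and 6.86, so replicate 2 lay within the low-DOX range. Neuron genes had the opposite order: their mean was 5.45 to 6.44 on the low-DOX arrays, 8.46, 10.61 and 6.73 on the high-DOX arrays and 10.71, 6.02 and 9.06 on the OPC lesion arrays. The part of either in the 10 genes was not tested.

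OPC lesion replicate 2 set Folr2 apart from Stab1, Mrc1, Ms4a7 and Ms4a14. With a pan-macrophage mean like that of the low-DOX tumors, it had Stab1 at 6.31, Mrc1 at 6.09, Ms4a7 at 5.41 and Ms4a14 at 3.19. Each was the highest of the 3 OPC lesions but below every low-DOX array, whereas Folr2 (7.61) was the highest of all 9 arrays. Other macrophage genes were high on this OPC lesion array. The class A scavenger receptor Msr1 measured 8.31 there, above all 3 low-DOX values of 6.91, 5.60 and 7.63. Ms4a6c and Ms4a6d measured 8.71 and 8.31. When the pan-macrophage mean was subtracted on each array, all low-DOX values of Mrc1 and Ms4a7 stayed above all high-DOX values, with differences of -1.67 and -3.15 for high-DOX minus low-DOX. Stab1 (-1.13) was apart by only 0.008, and Ms4a14 (-1.34) overlapped. The differences of the other 6 genes were then all positive, from 0.36 for Folr2 to 2.06 for Lyve1. Cd163 and Lyve1 had been positive before, and F13a1, Cbr2, Pf4 and Folr2 turned. The median of the 10 became 0.50. For genes near background on most arrays, such as Cd163 and Lyve1, this subtraction mostly returns the pan-macrophage mean with its sign turned. Background also limits Ms4a7 and Ms4a14, which were above the reference on 1 and 0 of the high-DOX arrays. With its high-DOX arrays set at the reference, Ms4a14 differed by 1.46 in log2 before subtraction. This is less than the difference between the pan-macrophage means, 8.43 in low-DOX and 6.88 in high-DOX tumors.

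**Figure D2:**
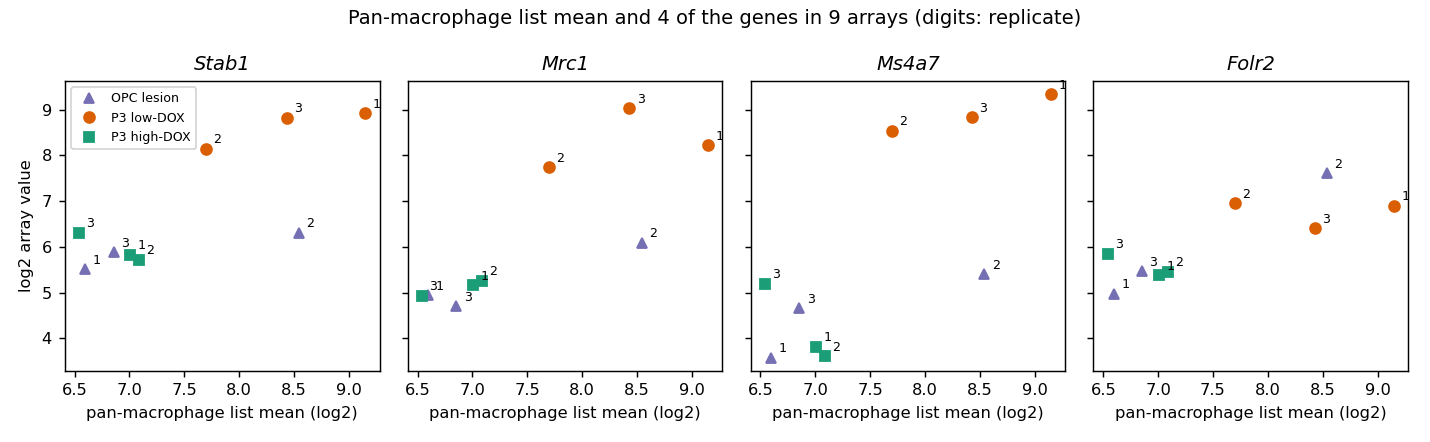
Log2 values of Stab1, Mrc1, Ms4a7 and Folr2 (vertical axes) against the mean log2 value of 15 pan-macrophage genes (horizontal axes) on the 9 arrays, with colour and shape for the group and a digit for the replicate. OPC lesion replicate 2, with a pan-macrophage mean of 8.54, lies far below the low-DOX arrays for Stab1, Mrc1 and Ms4a7 and above them for Folr2.

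Ms4a7 and Ms4a14 are neighbours in a cluster of Ms4a genes on chromosome 19, of which 20 of 21 annotated genes were measured. Of the 20, 10 were above the background reference on at least 1 array. Differences below -1 for high-DOX minus low-DOX were found for 7 genes, all in a run from Ms4a14 to Ms4a6d: Ms4a14, Ms4a7, Ms4a4a (-3.31, SE 0.82), Ms4a4c (-1.09, SE 0.53), Ms4a6c (-3.14, SE 1.14), Ms4a6b (-2.46, SE 0.71) and Ms4a6d (-1.89, SE 0.74). Ms4a14 and Ms4a6b were not shown to be above background on any high-DOX array, and Ms4a7 and Ms4a4a only on 1. Ms4a4c and Ms4a6c were above it on 2 of the 3. The measured differences of these genes therefore rest wholly or in part on dim probes. With such arrays set at the reference, the low-DOX signal of Ms4a6b was at least 3.17-fold and that of Ms4a4a at least 7.36-fold above the high-DOX signal. For Ms4a6c it was at least 8.32-fold. For Ms4a4c it was at least 1.66-fold, a log2 difference of 0.73, which is under 1. In 6 of the 7, all but Ms4a4c, the groups did not overlap, as held for 7.76% of all genes in this direction. Since the 7 were picked by their difference, nothing is read from this count. The other 13, at both ends of the cluster and between, lay within 0.5 of 0. Of these, 10 were at or below the background reference on all 9 arrays, so no difference could show in them. They include Ms4a1 of B cells and Ms4a2, a chain of the IgE receptor of mast cells. Ms4a3 of myeloid precursors was above the reference on all 9. None of the 18 measured Ms4a genes outside the list passed the test; the limma adjusted p of Ms4a4a, which rested on low-DOX values of 8.27, 6.64 and 7.21 and high-DOX values of 3.64, 3.80 and 4.77, was 0.38. Ms4a4a and Ms4a6c also differed from the 2 listed genes on OPC lesion replicate 2, where they reached 6.73 and 8.71. The Ms4a4 and Ms4a6 genes are close copies, and probes of 1 may take up transcripts of another, which was not tested.

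**Figure D3:**
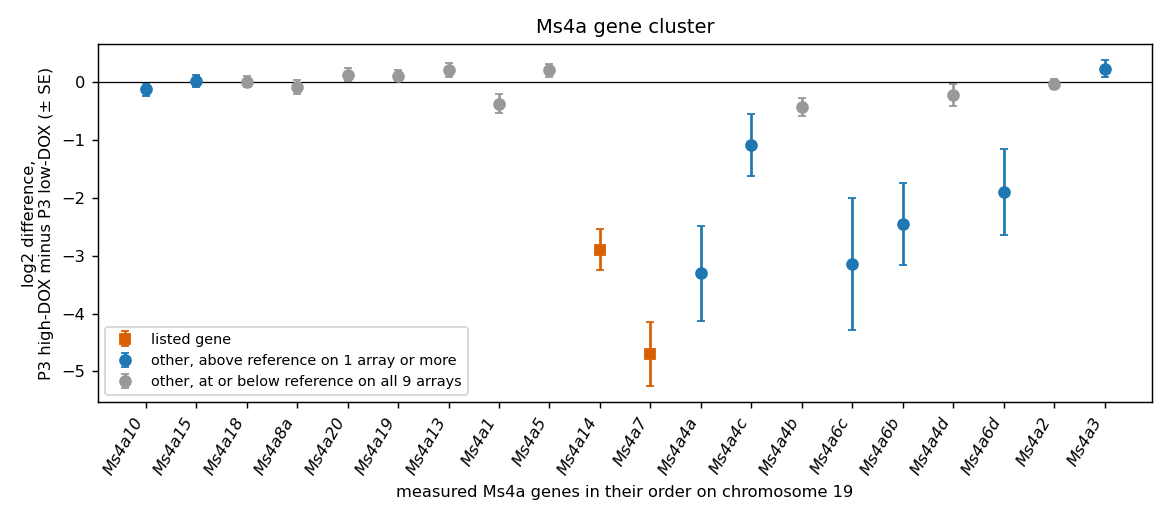
Log2 difference of high-DOX minus low-DOX P3 tumors with its standard error (vertical axis) for the 20 measured Ms4a genes, in their order on chromosome 19 (horizontal axis, not to distance). The 7 genes below -1 lie between Ms4a14 and Ms4a6d, whereas the genes before Ms4a14 and after Ms4a6d lie within 0.5 of 0.

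Further genes of the border macrophage type were read from a list of 28, of which 25 were measured. For high-DOX minus low-DOX, 22 had values below 0 with a median of -1.01, 12 with no overlap (7.76% of all genes), and 0 passed the test. Clec12a, an inhibitory lectin receptor of myeloid cells, measured 7.77, 6.23 and 6.01 in the low-DOX tumors, 4.18, 3.41 and 3.23 in the high-DOX tumors and 3.25, 4.49 and 3.51 in the OPC lesions (limma adjusted p = 0.38 between the doses). It was not shown to be above background on any high-DOX array and, of the OPC lesions, was above it only on replicate 2. There it lay below every low-DOX array, as the 4 leading genes did. Tgfbi, a matrix protein induced by TGF-beta, measured 11.10, 7.74 and 11.21 in the low-DOX tumors. In the high-DOX tumors it was 6.05, 6.56 and 8.15, which overlapped the low-DOX values, and on OPC lesion replicate 2 it was 10.43. Clec10a, Mgl2 and Cd209d, lectins of border macrophages and dendritic cells, were at or below the reference on all 9 arrays.

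Of 20 other scavenger receptors, 16 had values below 0 for high-DOX minus low-DOX with a median of -0.70, and 0 passed the test. Clec7a, which binds fungal glucans, measured 9.19, 7.12 and 9.17 in the low-DOX tumors, 7.20, 5.20 and 5.42 in the high-DOX tumors and 9.42 on OPC lesion replicate 2. The closest relatives of the 10 genes divided almost evenly by sign: of 13, 7 were below 0 and 6 above, with a median of -0.08. In 4 of them all high-DOX values lay below all low-DOX values, as for 7.76% of all genes. The reverse held for 0, against 8.23% of all genes, and 0 passed the test. Tgm2 had the widest difference, with 9.38, 7.87 and 8.75 in the low-DOX and 6.69, 7.17 and 7.16 in the high-DOX tumors. On OPC lesion replicate 2 it reached 10.12. Stab2, the other stabilin, was at or below the reference on all arrays. Mrc2, the other mannose receptor, measured 5.60, 5.78 and 8.67 in the low-DOX tumors and 4.99, 5.38 and 5.54 in the high-DOX tumors, high on low-DOX replicate 3 alone. Folr1, the other folate receptor, was at 7.06 on high-DOX replicate 2, the array with the choroid plexus genes, and at 4.99 or below on the rest.

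Genes that act on macrophages had differences of the same sign in most cases. Spi1, which encodes PU.1, measured 7.56, 6.53 and 7.29 in the low-DOX tumors, 5.78, 5.91 and 5.55 in the high-DOX tumors and 5.61, 6.90 and 5.63 in the OPC lesions (limma adjusted p = 0.39 between the doses). Csf1, the growth factor of macrophages, measured 9.69, 7.87 and 8.35 in the low-DOX tumors and 7.45, 7.11 and 7.44 in the high-DOX tumors. Of 17 such growth factors and regulators, 15 were below 0 with a median of -0.67, and of 16 genes of alternative activation, the state in which Mrc1 is known to be high, 13 were below 0 with a median of -0.64. Among the latter, Il10ra, a chain of the interleukin-10 receptor, measured 8.72, 7.11 and 7.81 in the low-DOX tumors and 5.77, 5.79 and 5.59 in the high-DOX tumors (limma adjusted p = 0.38), and Retnla and Il10 were at or below the reference on all arrays. Of 11 genes of haem and iron handling, the task of Cd163, 9 were below 0 with a median of -0.26.

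Other cell types were counted in the same way for high-DOX minus low-DOX. Of 13 homeostatic microglia genes, 8 were below 0 with a median of -0.65. Of 11 monocyte genes, 10 were below 0 with a median of -1.21, led by the lysozyme gene Lyz2 at 12.12, 11.28 and 12.17 in the low-DOX and 8.37, 8.03 and 9.28 in the high-DOX tumors. All 7 dendritic cell genes (median -0.65), all 7 T cell genes (-0.79) and all 12 meningeal fibroblast genes (-0.92) were below 0. The T cell genes were high on low-DOX replicate 1, with a mean of 6.18 against 4.36 and 4.29 on the other low-DOX arrays. Neutrophil genes had a median of -0.11, with 8 of 10 at or below the reference on all arrays, and the lymphatic and sinusoidal endothelium, which shares Stab1 and Lyve1, had a median of -0.22 over 8 genes. Brain endothelium had a median of -0.67 over 10 genes. All 10 neuron genes were above 0, with a median of 2.20. In each of these lists 0 genes passed the test.

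**Figure D4:**
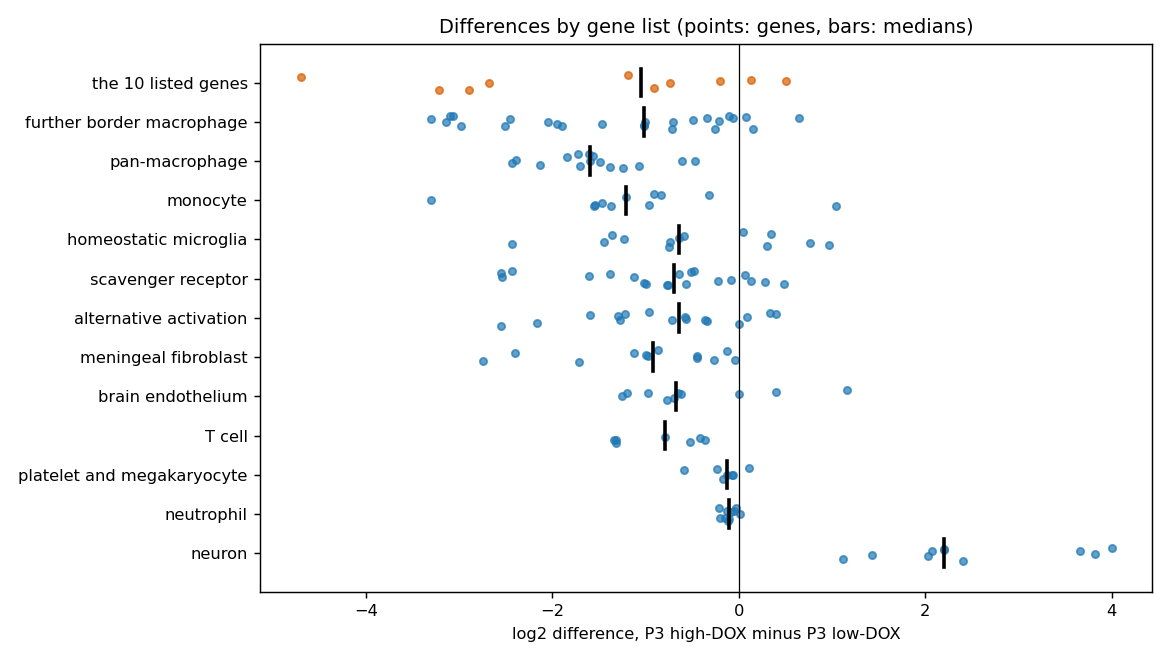
Log2 difference of high-DOX minus low-DOX P3 tumors (horizontal axis) for each measured gene (points) of 13 lists (vertical axis), with the median of each list (bars). The 10 listed genes have a median of -1.05, the pan-macrophage genes -1.60 and the neuron genes 2.20.

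Against the OPC lesions the low-DOX tumors had a pan-macrophage median of 1.16, with 14 of 15 genes above 0 and 0 without overlap, since OPC lesion replicate 2 lay among them. For the further border macrophage genes the median was 1.06, with 22 of 25 above 0 and 4 without overlap (6.34% of all genes). High-DOX tumors and OPC lesions had a pan-macrophage median of -0.42 and a median of -0.02 over the 10 genes. None of the genes of these lists outside the 10 passed the test.

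The genes most like the 10 over the 9 arrays were sought among 4828 genes with an SD of at least 0.5 and a mean above the reference in at least 1 group. The pattern they were compared with was the mean of the 10 genes, each centred on its own mean. Tmem45a (Pearson r = 0.97), Traf1 (0.96), Notch2 (0.96), Tgfb1 (0.95), Tec (0.95), Col6a2 (0.95), Lyz2 (0.95) and Foxc1 (0.95) had the highest r, each over the 9 arrays. Traf1, an adaptor of TNF receptors, measured 6.38, 5.48 and 6.45 in the low-DOX tumors, 4.14, 4.64 and 4.42 in the high-DOX tumors and 4.38, 4.64 and 4.10 in the OPC lesions. Notch2, a receptor of the Notch pathway, measured 8.26, 8.09 and 9.47 in the low-DOX tumors, 6.70, 7.15 and 6.87 in the high-DOX tumors and 6.16, 6.85 and 6.40 in the OPC lesions. Tgfb1, which encodes the cytokine TGF-beta 1, measured 8.65, 8.86 and 9.58, then 7.24, 7.70 and 7.35, then 6.73, 8.29 and 7.28 in the same order of groups. In the pattern itself Stab1, Mrc1, Ms4a7 and Ms4a14 had the most weight, with r between 0.96 and 0.99, whereas Cd163 and Lyve1 ran against it (-0.44 and -0.43). The points share arrays and tissue makeup, and genes picked as the most alike out of many carry no p.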

How the data were processed

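The authors normalized the hybridization signals by RMA (robust multichip average) in R and Bioconductor and deposited log2 values. Their methods add a step by SVA without saying whether the values come from before or after it. Array medians lay between 4.55 and 4.83, and precision is limited by having 3 arrays a group. Of 41345 probe sets, the 23521 that name 1 gene were used, that with the highest mean where a gene had several, which gave 22180 genes. The 10 genes and all lists were chosen with earlier results of these data known.

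Each comparison was fitted over the 9 arrays with limma 3.58.1 in R 4.3.3 on 6 residual degrees of freedom, two-sided, with Benjamini-Hochberg adjustment over all genes and a threshold of 0.05. The fit was tested on simulated data. Genes named are the 10, the 8 most like them, and in each list up to 4 with the widest difference between the P3 doses. Any further gene was picked with its values in view. Alternatives were another scaling, a filter, the mean of probe sets, a variance trend, only the groups compared, a replicate block, the methods' t-test and leaving out each array. The replicate numbers did not pair the arrays (r of same-numbered arrays from -0.48 to 0.27). Figures were drawn with matplotlib 3.10.9 in Python 3.11.15.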

Additional observations from a re-analysis of the deposited data

How the results depend on the processing

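Of 480 recomputed differences of the 10 genes, 8 changed direction. They came from leaving out 1 array, 7 of them between high-DOX tumors and OPC lesions, and none was over 0.46 in size with all arrays. A large part of the 480 could not change. The filter, the mean of probe sets, the variance trend, only the groups compared and the replicate block leave each difference as it was. So does leaving out an array of the group not compared. The 8 of 480 therefore do not measure how stable the differences are. Subtraction of the pan-macrophage mean is not among the 480. For high-DOX minus low-DOX it turned F13a1 to 0.64, Cbr2 to 1.35, Pf4 to 0.81 and Folr2 to 0.36. The count of genes that passed was 0 in all 3 comparisons with array medians set equal, quantile normalization, the filter, the mean of probe sets, the variance trend, only the groups compared, the replicate block and the methods' test after adjustment, which called 1656, 1402 and 558 genes before it. Leaving out 1 array gave 0 to 1 genes higher and 0 to 1 lower for high-DOX minus low-DOX, and 0 to 1 higher and 0 to 3 lower for low-DOX minus OPC lesion. Counts above 0 came without OPC lesion replicate 2, low-DOX replicate 1 or low-DOX replicate 3. The median of the 10 genes for low-DOX minus OPC lesion ran from 0.67 to 1.27, the latter without OPC lesion replicate 2. With the pan-macrophage mean subtracted on each array, the medians were 0.50 for high-DOX minus low-DOX, -0.17 for low-DOX minus OPC lesion and 0.44 for high-DOX minus OPC lesion. Genes near the background reference set a limit: for Pf4 and Cbr2 the arrays cannot tell a low level from none.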
